A study of Mus musculus with 8 samples.

Results

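The numbered G protein-coupled receptors are proteins named Gpr and a number, a naming scheme for receptor-like genes that were cloned before a ligand was known. Members were chosen by their symbol: each gene row of the count table whose Ensembl identifier has, in GENCODE M21, a protein-coding symbol made of Gpr, a number and at most 1 further letter, with Gpr15 left out. This gave 71 genes of the 51826 gene rows. The choice was made with the comparison of tRA and control in the same mice already known, so every difference between the groups is given as a description of these mice. Counts of calls come from fits over all genes, stand beside the share of all genes, and support no statement about the members.

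The libraries came from the whole splenocyte population of 8 female Balb/c mice, 4 given all-trans retinoic acid (tRA, the active form of vitamin A) and 4 controls. The tRA mice received a daily oral dose of 1 mg/kg body weight from weaning at 3 weeks until 3 months of age, when spleens were taken, and no pristane was injected. Controls were of the same strain and age, and per the study's methods the vehicle was canola oil. The treatment label gives the tRA dose for all 8 samples, whereas the sample titles separate control from tRA, and the grouping follows the titles.

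Gene counts totaled 37.5, 31.8, 35.9 and 30.9 M in control mice 1 to 4, and 33.8, 31.8, 35.2 and 32.0 M in tRA mice 1 to 4. Levels are given as CPM, a gene's counts divided by the TMM-scaled library total in M. The labels name separate samples of each group. Any p-value behind a count sets the difference between the groups against the spread between these samples. As the tissue was sequenced in bulk, fewer cells of a type and less RNA per cell cannot be told apart.

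G protein-coupled receptors cross the membrane as a bundle of helices and pass a signal from outside the cell to G proteins, which raise or lower cAMP or act through calcium. Regulator of G protein signaling (RGS) proteins shorten that signal, and receptor kinases and arrestins end it. In the spleen, several numbered receptors place lymphocytes and dendritic cells within the follicle and its borders, and others sense extracellular acidity.

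The word orphan is not apt for all 71 genes. Gpr183 binds oxysterols, Gpr34 and Gpr174 respond to lysophosphatidylserine, and Gpr4 and Gpr65 respond to protons. A further 9 members were grouped here as multi-pass proteins of intracellular membranes. Among them, Gpr89, Gpr107, Gpr108 and Gpr137 are not classical receptors.

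The labelled tissue was checked against its markers. All 7 B cell markers and all 7 T cell markers passed the filter on low counts, with Cd79a at 1396 ± 110 CPM and Lck at 531 ± 72.7 CPM in control mice (SD, n = 4). Of 4 neuronal markers, only Tubb3 passed the filter, at 0.825 ± 0.186 CPM (SD, n = 4), and Snap25 had 0 counts in all 4 control mice.

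Of the 71 members, 62 had at least 1 count and 37 passed the filter on low counts, which asks for about 0.304 CPM in at least 4 mice. Gpr21 and Gpr84 reached that level in all 4 control mice but not in all tRA mice, and Gpr152 in all 4 tRA mice but not in all control mice. Gpr151 and Gpr153 passed with fewer than 4 mice of either group above it. The tested member with the lowest total was Gpr151, with 92 counts over the 8 mice, and the untested member with the highest was Gpr161, with 87.

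When tRA mice were compared with control mice by the quasi-likelihood method of edgeR, with p-values adjusted after Benjamini and Hochberg, 0 of 16484 genes passed an FDR of 0.1 (0%), and so 0 of the 37 members. Without tRA mouse 4, 3 genes passed, Camp, Ngp and Ltf, and still 0 members. At an unadjusted p under 0.05 in edgeR there were 4 members, Gpr146, Gpr82 and Gpr182 with the higher mean in tRA mice and Gpr137 with the lower, against 1070 genes or 6.49% of all tested. Without tRA mouse 1 that count was 2105 of 16683 genes (12.6%) and 9 of 39 members (23.1%), and without tRA mouse 4 it was 657 of 16732 genes (3.93%) and 2 of 38 members (5.26%). DESeq2 called 44 of 12964 genes with an adjusted p, or 0.339%, and 1 of the 30 members with one, Gpr146, while limma-voom called 1 gene of all and 0 members. The 4 tRA mice all lay above the 4 control mice in 1 member, Gpr146, and in 1.91% of all genes tested. They all lay below in 2 members, Gpr137 and Gpr176, and in 1.63% of all genes tested.

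The members were split in direction. The log2 fold change, tRA over control in edgeR, was positive in 17 of the 37 members (45.9%) and in 50.3% of all genes tested. Its median was -0.04 over the members and 0.00 over all genes, and the median size without sign was 0.14 and 0.11. Single libraries set the sign of the members' median, which was 0.00227 without tRA mouse 1, 0.00845 without tRA mouse 3 and 0.00622 without tRA mouse 4. It was also nearer to 0 without control mouse 2 (-0.0177), control mouse 3 (-0.0359), control mouse 4 (-0.00866) or tRA mouse 2 (-0.0313). Without control mouse 1 it was farther from 0 (-0.0553). For 26 of the 37 members the mean in tRA mice lay within 1.2 times the mean in control mice.

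Compared per kb of exonic length, the tested members spanned a wide range in the spleen, from Gpr132 at 57.1 CPM per kb over the 8 mice to Gpr153 at 0.0916. In control mice, Gpr132 stood at 59.9 ± 4.66 CPM per kb and Gpr18 at 57.3 ± 4.82 (SD, n = 4), a difference within their spread. Gpr183 at 31.6 ± 5.20, Gpr108 at 29.7 ± 1.59 and Gpr171 at 29.7 ± 5.58 CPM per kb formed the next level and were likewise not separated by their spread. Gpr174 and Gpr65 followed at 17.7 ± 3.35 and 17.4 ± 1.18 CPM per kb in control mice. Below them lay Gpr180 at 9.93 ± 0.675, Gpr137 at 7.58 ± 0.351, Gpr107 at 4.56 ± 0.104 and Gpr146 at 4.16 ± 0.207 CPM per kb. Over all 8 mice Gpr146, at 4.90 CPM per kb, stood just above Gpr107, at 4.67. The 10 members with the highest CPM held 80% of the summed CPM of the 71 members.

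**Figure D1:**
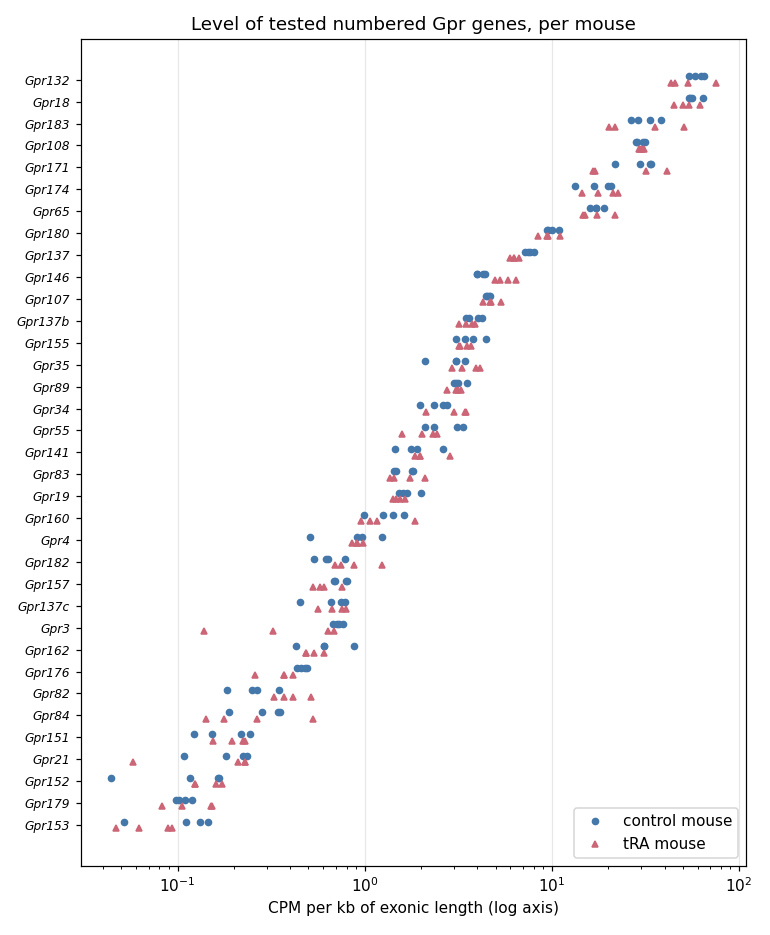
Level of the tested members reported here, as CPM per kb of exonic length on a log axis, with 1 circle per control mouse and 1 triangle per tRA mouse. Gpr132 and Gpr18 lie highest and Gpr153 lowest, and in most members the marks of both groups mix.

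Gpr183, which guides B cells and dendritic cells to the follicle border by oxysterols, was measured at 110.1, 83.1, 76.1 and 96.1 CPM in control mice 1 to 4. The tRA mice 1 to 4 had 147.5, 103, 62.7 and 58.4 CPM. Thus tRA mouse 1 was the highest and tRA mice 3 and 4 the lowest of all 8, and the groups overlapped. Its log2 fold change was 0.02 ± 0.26 (SE), with a sign that changed without control mouse 2 or 3 and without tRA mouse 1 or 2, and a range of -0.29 to 0.19 over single mice left out. It was -0.07 by limma-voom and -0.06 with the replicate number as a block.

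Gpr18 lies beside Gpr183 on chromosome 14 (GRCm38 chr14:121911253-121915781 and chr14:121952551-121965195, minus strand), and both sit inside an intron of Ubac2. Its level was 96.5, 81.0, 81.9 and 84.1 CPM in control mice and 92.4, 80.6, 74.8 and 67.0 CPM in tRA mice, in the order of their numbers. The groups overlapped, with tRA mice 3 and 4 lowest, and the log2 fold change was -0.13 ± 0.10 (SE), between -0.21 and -0.06 when any 1 mouse was left out. Ubac2, the host gene, had 77.1 ± 4.75 CPM in control and 70.4 ± 4.94 CPM in tRA mice (SD, n = 4 per group).

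Gpr174, a receptor for lysophosphatidylserine on lymphocytes, had 111, 108, 90.3 and 72.2 CPM in control mice 1 to 4 and 95.5, 115, 78.5 and 121 CPM in tRA mice 1 to 4. The highest and the lowest mouse came from different groups, and the ranges overlapped. Its log2 fold change was 0.10 ± 0.16 (SE), between -0.01 and 0.21 when any 1 mouse was left out, and negative without control mouse 4. The other tested receptors for lipids and metabolites ranged from a log2 fold change of -0.39 for Gpr55, a receptor for lysophosphatidylinositol, to 0.31 for Gpr34. Gpr35, a receptor for tryptophan metabolites, and Gpr84, a receptor for medium-chain fatty acids, had 0.29 and -0.06. With 1 mouse left out, Gpr35 ran from 0.16 (without control mouse 1) to 0.38, and Gpr84 from -0.56 (without tRA mouse 2) to 0.15 (without tRA mouse 4), a change of sign. Further, 39.5% of the exonic bases of Gpr84 are shared with Gm49482 on the opposite strand. Gpr55 had 8.77, 7.78, 12.5 and 11.6 CPM in control mice and 5.89, 7.49, 9.03 and 8.62 CPM in tRA mice, with overlap, a gene outside the rule for named members and chosen after its values were seen. Of the 9 members in this class, Gpr31b and Gpr119 were not tested, with 9 counts and 1 count over all mice.

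Proton-sensing receptors come next. Gpr132, a relative of the proton sensors that also responds to oxidized fatty acids, had 169, 147, 159 and 176 CPM in control mice 1 to 4. Its values in tRA mice 1 to 4 were 204, 145, 118 and 124 CPM, so that tRA mouse 1 was the highest of the 8 and tRA mice 3 and 4 the lowest, with the groups overlapping. On the log2 scale the fold change was -0.14 ± 0.15 (SE), with -0.34 without tRA mouse 1, -0.05 without tRA mouse 3 and -0.07 without tRA mouse 4. Gpr65, which raises cAMP in lymphocytes and macrophages when the medium is acid, had 35.8, 33.3, 39.2 and 35.5 CPM in control mice. In tRA mice 1 to 4 it had 44.7, 36.2, 30.2 and 31.2 CPM. Again tRA mouse 1 was highest and tRA mice 3 and 4 lowest, and the log2 fold change of -0.01 ± 0.12 (SE) lay between -0.14 and 0.06 when any 1 mouse was left out. It had the other sign without control mouse 3, tRA mouse 3 or tRA mouse 4. Of the exonic bases of Gpr65, 24.7% are shared with Gm47566 on the opposite strand, and whether the counting used the strand is not stated. Gpr4, found mainly on endothelium, had a log2 fold change of 0.01, which was -0.19 without control mouse 3 and 0.20 without control mouse 4.

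Gpr146, a class A receptor known from liver, where it affects blood lipids, had 29.0, 29.9, 27.0 and 27.2 CPM in control mice 1 to 4. The tRA mice 1 to 4 had 33.8, 36.1, 43.8 and 39.5 CPM. Every tRA mouse was above every control mouse, with a mean of 38.3 ± 4.33 CPM in tRA against 28.3 ± 1.41 CPM in control (SD, n = 4 per group). This is a log2 fold change of 0.44 ± 0.09 (SE), which lay between 0.37 and 0.49 when any 1 mouse was left out. The study lists Gpr146 among its changed genes, so its separation in the same mice is not independent evidence. The gene (ENSMUSG00000044197, GRCm38 chr5:139377697-139396415, plus strand) sits inside an intron of 3110082I17Rik. That host gene had 4.52, 5.45, 5.55 and 4.94 CPM in control mice and 4.61, 4.53, 4.39 and 4.00 CPM in tRA mice, a log2 fold change of -0.22 with overlapping groups.

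Gpr171, a receptor of T cells and other lymphocytes, had 75.7, 48.7, 65.6 and 74.2 CPM in control mice 1 to 4 and 91.4, 70.9, 36.9 and 38 CPM in tRA mice 1 to 4. The highest mouse was tRA mouse 1 and the lowest were tRA mice 3 and 4, so the tRA group enclosed the control group. Its log2 fold change was -0.16 ± 0.27 (SE), moved to -0.44 without tRA mouse 1 and was 0.01 without either tRA mouse 3 or 4. It was -0.25 by limma-voom and -0.24 with the replicate number as a block. Gpr171 sits inside an intron of Med12l, which had 3.67 ± 0.450 CPM in control and 3.18 ± 1.08 CPM in tRA mice (SD, n = 4 per group).

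Gpr82 had the largest positive log2 fold change of the tested members, at a low level. Control mice 1 to 4 had 0.460, 0.623, 0.665 and 0.873 CPM, and tRA mice 1 to 4 had 1.28, 0.819, 0.922 and 1.04 CPM. Only control mouse 4 and tRA mouse 2 overlapped, and the log2 fold change was 0.64 ± 0.27 (SE) on 223 counts over the 8 mice. Gpr82 and Gpr34 both sit inside Cask on the X chromosome, and Cask had 6.43 ± 0.694 CPM in control and 6.76 ± 1.13 CPM in tRA mice (SD, n = 4 per group).

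Gpr182, a chemokine-binding receptor of endothelium, had 2.11, 2.52, 3.09 and 2.46 CPM in control mice and 2.75, 2.96, 4.88 and 3.48 CPM in tRA mice. The tRA mice were mostly the higher ones, but control mouse 3 lay above tRA mice 1 and 2. A log2 fold change of 0.47 ± 0.21 (SE) over control became 0.27 without tRA mouse 3, the highest of the 8. Endothelial and stromal markers had a median log2 fold change of 0.00 over 5 genes. They summed to 246, 252.5, 250.3 and 240.3 CPM in control mice and to 243, 248, 254 and 244 CPM in tRA mice. Pecam1 alone had 239.8 ± 4.92 CPM in control and 240.1 ± 2.95 CPM in tRA mice (SD, n = 4 per group). These sums therefore describe mostly Pecam1 and hide the spread of the other markers. In 3 of the 5, Cdh5, Col1a1 and Col3a1, tRA mouse 3 was the highest of the 8, as in Gpr182. In Pecam1 and Pdgfrb it was not, and its Pdgfrb level, 2.20 CPM, lay below those of control mice 2 to 4. No share of all genes stands beside this count. Cdh5, an adhesion molecule of endothelium, had 2.00, 4.58, 4.85 and 3.94 CPM in control mice 1 to 4 and 3.12, 3.15, 6.51 and 3.30 CPM in tRA mice 1 to 4. The part of these cells in the values of Gpr182 was not tested. The other tested class A members of blood cells and vessels, Gpr141 and Gpr160, had log2 fold changes of 0.17 and -0.07. Single mice carried both, as Gpr141 was 0.00 without tRA mouse 4 and 0.35 without control mouse 2, and Gpr160 was -0.31 without tRA mouse 1 and 0.05 without tRA mouse 3. In this class Gpr1, Gpr17, Gpr20, Gpr25 and Gpr33 were not tested and had at most 26 counts in all, for Gpr25.

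Gpr3, which activates the stimulatory G protein without a ligand and so raises cAMP, had the largest negative log2 fold change of the tested members, again at a low level. It had 1.95, 2.09, 1.99 and 1.84 CPM in control mice 1 to 4 and 1.86, 1.73, 0.380 and 0.886 CPM in tRA mice 1 to 4. The control mice lay close together, with 1.13 times between the highest and the lowest, while the tRA mice spanned 4.91 times, with mice 3 and 4 low and mouse 1 within the control range. The log2 fold change was -0.70 ± 0.39 (SE), between -0.99 (without tRA mouse 1) and -0.40 (without tRA mouse 3) when any 1 mouse was left out, -0.97 by limma-voom and -0.84 with the replicate number as a block. Its relatives Gpr6 and Gpr12 had 0 counts and 1 count over all mice.

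Among the multi-pass proteins of intracellular membranes, 8 of 9 members were tested and Gpr143 had 0 counts. Gpr137, a protein of the lysosomal membrane, had 25.8, 27.3, 25.4 and 24.4 CPM in control mice 1 to 4 and 22.7, 21.3, 21.3 and 20.3 CPM in tRA mice 1 to 4. Every tRA mouse was below every control mouse, and the log2 fold change was -0.27 ± 0.07 (SE), between -0.30 and -0.24 when any 1 mouse was left out. On the opposite strand, Bad, a gene of apoptosis, shares 524 of its exonic bases, or 15.4% of the exonic length of Gpr137. Bad had 11.7, 12.1, 11.8 and 11.1 CPM in control mice and 10.1, 10.7, 9.36 and 9.72 CPM in tRA mice, which also lay all below control. Bad had a log2 fold change of -0.23, and as no source states whether counting used the strand, reads of the shared bases cannot be assigned to either gene.

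Gpr108, a Golgi protein, had the lowest biological coefficient of variation between mice of the 37 tested members, 0.0775, with 81.9, 88.3, 89.7 and 80.6 CPM in control mice and 86.7, 83.5, 89.4 and 84.8 CPM in tRA mice. The groups overlapped, and the log2 fold change of 0.02 ± 0.06 (SE) was below 0 without control mouse 1 or 4 and without tRA mouse 3. Gpr180 had 17.8, 18.7, 20.4 and 17.6 CPM in control mice and 20.8, 17.7, 15.8 and 17.9 CPM in tRA mice. The groups overlapped again, and the log2 fold change of -0.04 ± 0.10 (SE) was between -0.12 and 0.01 when any 1 mouse was left out, and positive without tRA mouse 3. The other tested proteins of this class, Gpr89, Gpr107, Gpr137b, Gpr137c and Gpr155, ranged from -0.11 for Gpr155 to 0.07 for Gpr137c. With 1 mouse left out, Gpr155 ran from -0.19 (without control mouse 4) to -0.01 (without control mouse 2), and Gpr137c from -0.08 (without control mouse 3) to 0.17 (without control mouse 1). Of the exonic bases of Gpr89, 27.9% are shared with Pdzk1 and Gja5 on the opposite strand.

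In class C, Gpr179 had a log2 fold change of 0.20 (0.08 without tRA mouse 3, 0.35 without tRA mouse 2), at 1.02 ± 0.0895 CPM in control and 1.17 ± 0.332 CPM in tRA mice (SD, n = 4 per group), and Gpr158 had 0 counts.

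Of the 31 remaining members, known mostly from the nervous system or with no settled role, 9 were tested. Gpr176, a receptor known from the brain's circadian clock, had 1.70, 1.77, 1.88 and 1.91 CPM in control mice 1 to 4 and 1.01, 1.61, 1.44 and 1.44 CPM in tRA mice 1 to 4. Every tRA mouse was below every control mouse, tRA mouse 1 farthest, with a log2 fold change of -0.40 ± 0.20 (SE) on 428 counts over the 8 mice. It shares 133 exonic bases with Gm29232 on the same strand. Gpr153, with 0.568, 0.436, 0.202 and 0.517 CPM in control mice and 0.366, 0.346, 0.244 and 0.183 CPM in tRA mice, overlapped between the groups, control mouse 3 lying among the tRA mice. Its log2 fold change was -0.59 ± 0.39 (SE) on 96 counts over the 8 mice. The other tested members here, Gpr19, Gpr21, Gpr83, Gpr151, Gpr152, Gpr157 and Gpr162, ranged from -0.27 for Gpr157 to 0.25 for Gpr152. The value of Gpr152 was -0.04 without control mouse 3, the lowest of the 8, and 0.43 without control mouse 2. Gpr83, known from regulatory T cells, had 8.28 ± 1.04 CPM in control and 8.44 ± 1.71 CPM in tRA mice (SD, n = 4 per group). Per kb in control mice it stood at 1.63 ± 0.204 and Gpr19 at 1.70 ± 0.201 CPM (SD, n = 4), a difference within their spread.

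**Figure D2:**
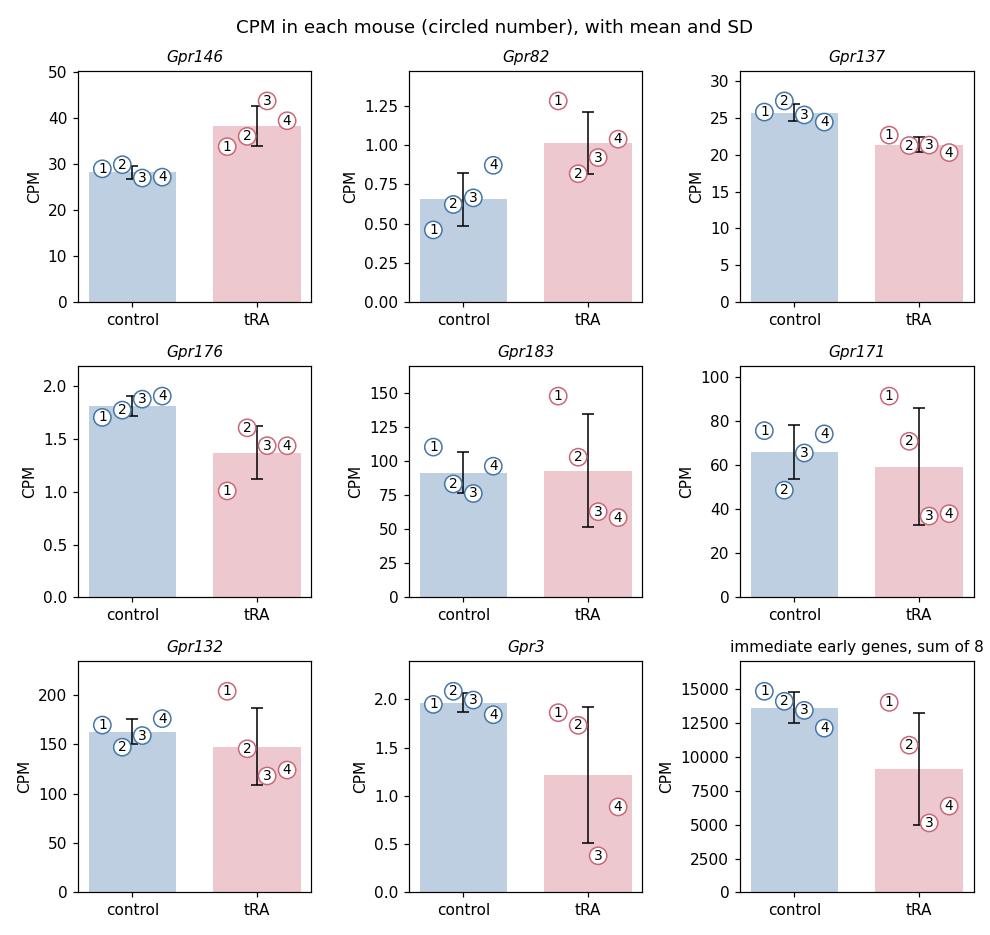
CPM in each mouse, with bars for the group mean, error bars for the SD (n = 4) and circled numbers for the mice, for 8 members and the sum of 8 immediate early genes. The 4 tRA mice lie above control in Gpr146 and below it in Gpr137 and Gpr176, and tRA mice 3 and 4 lie lowest in Gpr183, Gpr171, Gpr132, Gpr3 and the immediate early genes.

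Of the 34 members not tested, 22 belong to these remaining members, and 25 had at least 1 count. The highest totals over the 8 mice were 87 for Gpr161, 66 for Gpr63, and 62 each for Gpr45 and Gpr62. The 9 members at 0 in all mice were Gpr6, Gpr20, Gpr26, Gpr37, Gpr39, Gpr101, Gpr139, Gpr143 and Gpr158. A total of 0 allows a level of up to 0.0112 CPM over the 8 libraries, by counting error only.

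**Figure D3:**
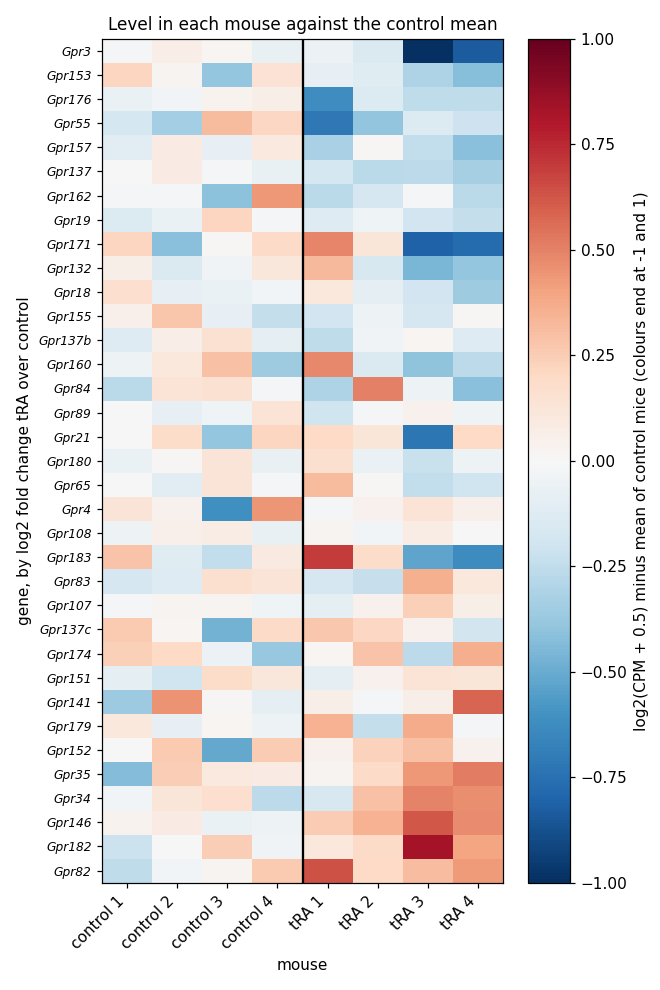
Level of the tested members reported here in each mouse, as log2(CPM + 0.5) minus the mean of the control mice, ordered by log2 fold change from Gpr3 at the top to Gpr82 at the bottom. Red is above and blue below the control mean, and the tRA columns differ from each other within many rows.

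Immediate early genes, which are switched on within minutes of a stimulus, varied widely among the tRA mice. The 8 listed genes summed to 14850, 14110, 13440 and 12130 CPM in control mice 1 to 4, and to 14030, 10870, 5128 and 6373 CPM in tRA mice 1 to 4. All 8 had a negative log2 fold change, with a median of -0.52, and Fos, the most abundant over the 8 mice, had 3337, 3230, 3302 and 2866 CPM in control and 3563, 2762, 1117 and 1420 CPM in tRA mice. As in Gpr183, Gpr171, Gpr132 and Gpr3, tRA mice 3 and 4 were lowest. In Jun, Fosb and Egr1 all tRA mice lay below all control mice, as in 1.63% of all genes tested. In the other listed genes the groups overlapped. DESeq2 called Egr1 and Jun, at adjusted p-values of 0.0856 and 0.0903, against 0.339% of all genes with an adjusted p. The part of the immediate early genes in the values of Gpr183, Gpr171, Gpr132 and Gpr3 was not tested. Of the tested members, 6 (16.2%) were highest in tRA mouse 1 and lowest in tRA mouse 3 within the tRA group, against 14.7% of all genes tested, a description chosen after the values were seen.

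Markers of cell types were read beside the members. Neutrophil precursor genes had a negative log2 fold change in 7 of 7, against 8194 of 16484 genes tested, with a median of -0.88. They summed to 549.6, 694, 734 and 629 CPM in control mice and to 250.2, 313, 342 and 489 CPM in tRA mice, Ngp being the most abundant. Every tRA mouse was below every control mouse in this sum. DESeq2 called Camp, Ngp, Ltf and Lcn2, at adjusted p-values of 7.96e-10, 0.0016, 0.0135 and 0.0917, against 0.339% of all genes with an adjusted p. Elane, Mpo and Chil3 were not called, and edgeR called no gene of this list. Markers of mature neutrophils had a median of -0.41 over 7 genes but were split, with Csf3r, the most abundant, at 0.25 and Cxcr2 at 0.39, and S100a8, S100a9 and Ly6g among the 5 that were negative. Their sums overlapped, at 549 to 912 CPM in control and 467 to 831 CPM in tRA mice. Erythroid genes, with Hba-a1 the most abundant, had a median of 0.43 and sums from 141 to 1117 CPM among the 8 mice. The lists for B cells, T cells, NK cells, monocytes and macrophages, conventional and plasmacytoid dendritic cells, eosinophils, platelets, and endothelium and stroma had medians between -0.15 and 0.11. The part of these cell types in the members' values was not tested.

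Genes that act with the receptors were read from lists of the pathway, and edgeR called 0 of them at an FDR under 0.1, with 3 of the 47 tested at an unadjusted p under 0.05, Gnb5, Rgs16 and Abhd12 (6.38%, against 6.49% of all genes). In the same 3 genes all tRA mice were below all control mice, against 1.63% of all genes, and in 0 were they all above, against 1.91%. DESeq2 called 0 of the 40 with an adjusted p. Of the 17 tested G protein subunits, 12 had a negative log2 fold change. The largest sizes were those of Gnb5 at -0.64 ± 0.22 and Gnao1 at -0.34 ± 0.59 (SE). Gnb5, which pairs with a subset of RGS proteins, had 1.92, 1.99, 1.88 and 1.42 CPM in control mice and 1.31, 1.17, 0.814 and 1.34 CPM in tRA mice, all of the latter below control. Arrestins and receptor kinases had small log2 fold changes, with Grk3 at -0.13 and Arrb1 at 0.12 as the largest of 7. Of the 11 RGS genes, 6 had a positive and 5 a negative log2 fold change, with Rgs16 at -1.07 and Rgs2 at -0.39 as the largest.

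Rgs16 had 7.90, 8.31, 11.2 and 11.2 CPM in control mice 1 to 4 and 7.79, 6.39, 2.14 and 2.08 CPM in tRA mice 1 to 4. All tRA mice were below control, tRA mouse 1 only narrowly and tRA mice 3 and 4 by far. Rgs2, which limits signals of Gq, had 391, 335, 336 and 279 CPM in control mice and 409.7, 306, 137 and 173 CPM in tRA mice, overlapping, with tRA mice 3 and 4 again lowest. Of the 7 tested adenylyl cyclases, 5 had a positive log2 fold change. The largest were Adcy8 at 0.64 ± 0.37 and Adcy9 at 0.23 ± 0.23 (SE). Adcy8 was at a low level, 0.510 ± 0.199 CPM in control and 0.789 ± 0.278 CPM in tRA mice (SD, n = 4 per group), with overlap.

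For the ligands, Cyp27a1 was the only 1 of 4 listed oxysterol enzymes that passed the filter, with a log2 fold change of -0.06, while Ch25h, Cyp7b1 and Hsd3b7 did not. The level of the gene for Ch25h, which makes the precursor of the main Gpr183 ligand, was 0.126 ± 0.111 CPM in control and 0.121 ± 0.144 CPM in tRA mice (SD, n = 4 per group). Of 4 enzymes of lysophosphatidylserine, which make or degrade the ligand of Gpr34 and Gpr174, Pla1a had a log2 fold change of 0.27 ± 0.41 (SE). That of Abhd12 was -0.17 ± 0.06 (SE). Abhd12, a hydrolase that degrades this ligand, had 70.7, 78.4, 76.9 and 74.3 CPM in control mice. In tRA mice it had 64.5, 67.5, 69.1 and 65.5 CPM, all below control.

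Promoter sequences were matched by symbol to RefSeq windows of GRCm38.p6, each from 250 bases before to 50 after a start, and 50 members had 66 windows. As tRA acts through nuclear receptors, the half-site AGGTCA was searched on both strands. It was in 10 of the 66 windows (15.2%) and in 16.3% of all 32851 windows. A pair of half-sites in the same direction 1, 2 or 5 bases apart was in 0 of the 66 and in 0.0578% of all windows. At so low a share, 66 windows are too few to tell the members from all windows. Only these exact letters were searched, without variants of the half-site. The cAMP response element TGACGTCA was in 1.52% of the members' windows and 1.79% of all, and the AP-1 site TGACTCA in 6.06% and 5.20%. For the single half-site, the cAMP response element and the AP-1 site, the members' shares were close to those of all windows.

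The 250 bases before a start are shown for Gpr146, the member with every tRA mouse above control, and for Gpr82, the member with the highest log2 fold change. Both lie on the plus strand of GRCm38.p6, at chr5:139377447-139377696 and chrX:13661113-13661362, hold no exon of GENCODE M21, and lie in an intron of 3110082I17Rik and of Cask. Capitals mark the letters AGGTCA, found in the Gpr82 window. None of the 3 Gpr146 windows held these letters on either strand, and 1 of the 3 is shown. The study lists a closest tRA receptor binding site for Gpr146. In the study's coordinates that site lies more than 250 bases before the start of the gene. The site itself was not compared with these windows. A match of letters is a description and not a binding site.
Gpr146: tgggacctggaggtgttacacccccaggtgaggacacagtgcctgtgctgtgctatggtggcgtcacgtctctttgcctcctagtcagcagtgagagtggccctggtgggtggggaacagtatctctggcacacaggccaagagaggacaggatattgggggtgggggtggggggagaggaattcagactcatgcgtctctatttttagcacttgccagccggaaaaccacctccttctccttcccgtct
Gpr82: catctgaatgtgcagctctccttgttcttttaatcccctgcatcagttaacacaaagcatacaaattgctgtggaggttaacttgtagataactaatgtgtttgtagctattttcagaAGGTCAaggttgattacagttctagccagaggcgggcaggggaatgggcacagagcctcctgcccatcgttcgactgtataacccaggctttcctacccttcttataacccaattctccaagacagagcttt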

How the data were processed

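RNA-seq counts of total splenocytes from 4 tRA and 4 control Balb/c mice were analysed. The authors deposited raw counts per Ensembl gene without normalization. The paper's methods name ea-utils, Btrim, Bowtie2/Tophat2 and HTSeq, whereas the submitters' processing notes list STAR 2.5.2b, featureCounts 1.5.1, DESeq2 1.26.0 and GRCm38. The 2 accounts differ, and neither states a strand setting. The deposited DESeq2 comparison holds the authors' fold changes and p-values and was not used. Of 51826 rows, 51633 matched GENCODE M21, another release than the authors' annotation, and 193 did not. Genes were filtered by filterByExpr (minimum count 10), scaled by TMM and tested by edgeR 4.0.16 quasi-likelihood in R 4.3.3, with Benjamini-Hochberg adjustment over all genes, and the fit was tested on simulated data. Levels per kb use the union of exons. DESeq2 1.42.0 was run on the filtered genes. Other alternatives were limma-voom (limma 3.58.1), RLE, library size alone, 2 other filters, protein-coding genes only, the replicate number as a block, and each mouse left out. Figures were drawn in Python 3.11.15 with matplotlib 3.10.9. Counts and medians cover all members, but the values of some members are not reported here. Members and lists were chosen with earlier results of these data known. Members named with every mouse were Gpr146, the 10 highest per kb, those whose groups did not overlap, and the 5 largest log2 fold changes. From each pathway list up to 2 tested genes, those with the largest log2 fold change in size, were named by that value, and only some of them with every mouse. Counts per library were 30.9 to 37.5 M, and a limit of 3 counts was used for totals of 0.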

Additional observations from a re-analysis of the deposited data

How the results depend on the processing

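Over all genes, edgeR called 0 at an FDR under 0.1 with 1070 at an unadjusted p under 0.05, and this count was 44 by DESeq2, 6 with no filter on low counts and 1 by limma-voom. It was 0 under RLE, library size alone, a minimum of 10 counts in each mouse, a fit of protein-coding genes and the replicate block, and 0 to 3 with 1 mouse left out, the 3 without tRA mouse 4 being Camp, Ngp and Ltf. Among the members, DESeq2 called 1, Gpr146, and every other alternative, single mice left out included, called 0. The cause of these differences between tools was not tested. The number of members with a positive log2 fold change was 17 of 37 and lay between 16 and 22 with 1 mouse left out, of 38 or 39 members then tested. With no filter it was 24 of 62. The median was -0.04 and ranged from -0.0553 to 0.00845 with 1 mouse left out, being positive without tRA mouse 1, 3 or 4 and negative in every other alternative.

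For the 15 named members, 17 of 239 alternative values had the other sign, all in Gpr65, Gpr108, Gpr171, Gpr174, Gpr180 and Gpr183. Library size alone moved the median of all genes by 0.03, and 1 of the 17, that of Gpr65 (0.01), came from that scaling, a move no larger than that of all genes. For pairs of mice of 1 group, chi-square over its degrees of freedom was 14.1 to 72.6, above counting noise.

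The replicate numbers do not establish a pairing of the mice. Deviations from the group means of mice with the same number correlated at 0.21, -0.0236, -0.0219 and 0.308, with only 2 of the 4 above 0.1, and no label names anything shared by mice of 1 number. Fitted with the replicate block, edgeR called 0 genes and 0 members, with 1200 genes (7.28%) and 6 of 37 members (16.2%) at an unadjusted p under 0.05, and 16 members had a positive log2 fold change, with a median of -0.0536.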
